A study of Mus musculus with 6 samples.

Results

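The 10 genes examined encode the large proteoglycans and link proteins that form hyaluronan aggregates in cartilage, together with the enzymes that make and degrade hyaluronan. They were taken by exact symbol from a table of 23351 entries: Acan, Vcan, Hspg2, Hapln1, Hapln3, Has1, Has2, Has3, Hyal1 and Hyal2. All 10 were found, and 8 passed the expression filter of at least 1 FPKM in 2 libraries. Has1 and Has3 did not.

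RNA was sequenced from primary chondrocytes that came from C57BL/6 knees at postnatal day 3, with 3 libraries from control mice and 3 from Uhrf1 cKO (conditional knockout) mice. Uhrf1 encodes a protein needed to copy DNA methylation after replication. The cells were released with collagenase, and the cells of all 6 libraries, controls included, were grown to confluence and given 100 ng/ml recombinant BMP-2, which promotes cartilage differentiation, for 24 hours. The genotype of the controls, the driver of the deletion and the number of animals behind a library were not given in the sources used here. Values are FPKM, fragments scaled to transcript length and sequencing depth, so levels of different genes can be compared per length.

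In cartilage, aggrecan monomers bind along a thread of hyaluronan, and a link protein locks each one in place. The sulfated chains on aggrecan hold the water that lets the tissue resist compression. Versican binds hyaluronan in the same way and is known from the precartilage condensation and from connective tissue, while perlecan sits around the chondrocyte and in basement membranes. Hyaluronan is spun out by synthases in the plasma membrane and cut by hyaluronidases.

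Acan and Vcan, the lectican genes that bear on the first result, differ in the DNA before their starts. Both stretches below are the 250 bases before the RefSeq start (GRCm38.p6, read on each gene's own strand), with every CG dinucleotide, the site of DNA methylation that Uhrf1 helps to copy, in capitals. The Acan stretch is chr7:79052976-79053225, plus strand, and ends 257 bases before the start listed in the deposited table. The Vcan stretch is chr13:89742513-89742762, minus strand, and ends at the listed start.
Acan: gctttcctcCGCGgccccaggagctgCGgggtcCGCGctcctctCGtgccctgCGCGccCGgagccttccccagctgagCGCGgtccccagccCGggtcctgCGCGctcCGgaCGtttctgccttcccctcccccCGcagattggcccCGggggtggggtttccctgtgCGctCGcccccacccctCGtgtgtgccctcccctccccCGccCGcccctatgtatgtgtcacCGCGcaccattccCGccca
Vcan: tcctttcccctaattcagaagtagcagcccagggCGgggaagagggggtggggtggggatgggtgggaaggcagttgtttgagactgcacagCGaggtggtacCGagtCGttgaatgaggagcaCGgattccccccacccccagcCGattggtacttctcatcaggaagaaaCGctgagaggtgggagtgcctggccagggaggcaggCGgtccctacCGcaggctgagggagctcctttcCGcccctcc
The Acan stretch held 26 CG dinucleotides and the Vcan stretch 10, against a median of 6 over 32851 such stretches. Such stretches were found for 8 of the 10 genes, and Has2 and Has3 had none in the table used. Counts of CG ran from 2 before Hapln1, 4 before Has1, 5 before Hyal1 and 8 before Hapln3 to 13 before Hyal2 and 20 before Hspg2. Of all stretches, 90.4% held fewer CG than that of Acan and 62.2% fewer than that of Vcan. The stretches of Hapln1 and Hyal2 lie wholly inside their GENCODE genes, and those of Hspg2, Has1 and Hyal1 reach partly into theirs. Each of these stretches overlaps an exon, so it need not be a promoter. The Hapln3 stretch lies directly before its GENCODE gene. For Acan and Vcan alone, the bases just after the RefSeq start were not found whole in a GENCODE transcript. GENCODE starts Acan at 79053483 and Vcan, on the minus strand, at 89742509. The SOX-type motifs AACAAAG and AACAATG, searched on both strands, were in none of the 8 stretches and in 8.12% of all. No methylation was measured here, so these counts describe sequence only.

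Uhrf1 stood at 28.2, 22.9 and 30.6 FPKM in the controls and at 3.22, 3.17 and 2.73 in the cKO libraries. Depth was known only in relative terms, at 0.864 to 1.02 with Control 1 set to 1. The cells carried the markers of their labelled type, with Col2a1 at 4524 to 8262 FPKM over all 6 libraries and all 14 chondrocyte markers above the filter. In bulk RNA, fewer cells of a type and less RNA per cell cannot be told apart. The label prefix differs between every control and every cKO library, so whatever it stands for and genotype cannot be told apart.

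Of the 8 tested genes, 2 fell, 1 rose and 5 were not called in cKO cells. A call here is an adjusted p under 0.05 with limma on log2(FPKM + 1), adjusted over all 11911 genes tested, of which 17.8% were called. Lower calls were made for 7.96% of genes tested and higher calls for 9.81%. The median difference on the log2(FPKM + 1) scale was -0.16 over the 8 genes and 0.00 over all genes tested. The authors' deposited table calls the same 3 genes, Acan and Hapln1 lower and Has2 higher, against 22.9% of the entries it tested.

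**Figure D1:**
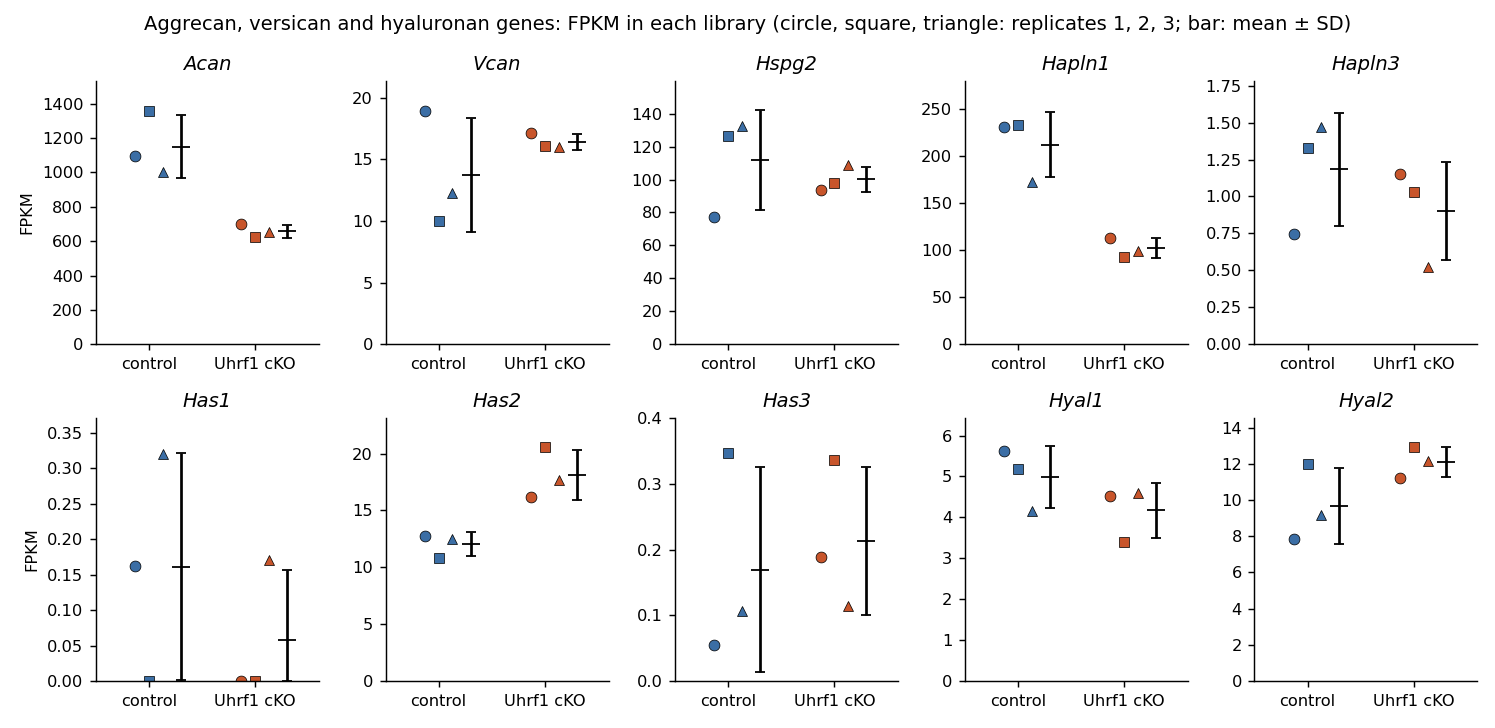
FPKM (vertical axes, each from 0) of the 10 genes in 3 control and 3 Uhrf1 cKO libraries. Points are libraries, and the bar beside them is the mean with its SD. The groups are apart for Acan, Hapln1 and Has2 and overlap for the other 7. Among all genes tested, 35.9% had groups that were apart.

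Acan encodes aggrecan, the main proteoglycan of cartilage (chromosome 7, 79053483 to 79115099, mm10, plus strand). It stood at 1095, 1356 and 1001 FPKM in Control 1, 2 and 3, and at 699, 624 and 653 FPKM in cKO 1, 2 and 3. Every cKO library lay below every control, with no overlap. The means were 1150.5 ± 184 (SD, n = 3) and 659 ± 37.8 FPKM (SD, n = 3), a fall of 1.75-fold. The fitted difference was -0.79 on the log2(FPKM + 1) scale (standard error 0.11; limma, adjusted p = 0.00110). Acan was the 66th most abundant of all entries in the controls and the 113th in cKO cells, so it remained among the most abundant transcripts.

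Hapln1 encodes the cartilage link protein, which fastens aggrecan to hyaluronan (chromosome 13, 89540636 to 89611832, plus strand). Its level was 230.4, 233 and 172 FPKM in the controls against 113, 92.4 and 99.2 FPKM in cKO cells. The groups did not overlap, and Control 3 was the lowest control. Hapln1 fell 2.09-fold, from 212 ± 34.3 to 102 ± 10.6 FPKM (SD, n = 3 each). The log2 difference was -1.04 (standard error 0.13; limma, adjusted p = 0.000554). It was the largest difference among the 8 tested genes.

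Hapln3 encodes a link protein that is known from tissues outside cartilage. It was near the filter, at 0.746, 1.33 and 1.47 FPKM in the controls against 1.15, 1.03 and 0.523 in cKO cells. These ranges overlap, and the difference of -0.20 (95% interval -0.70 to 0.30, log2 scale) was not called (limma, adjusted p = 0.593). In the controls the mean of Hapln1 was 212 FPKM and that of Hapln3 1.18 ± 0.385 (SD, n = 3). The authors' table did not test Hapln3.

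Vcan encodes versican, a lectican like aggrecan (chromosome 13, 89655310 to 89742512, minus strand). It stood at 18.9, 9.97 and 12.3 FPKM in the controls and at 17.1, 16.1 and 16.0 FPKM in the cKO libraries. The cKO libraries lay close together, while Control 1 lay above all of them and the other controls below. The means were 13.7 ± 4.64 and 16.4 ± 0.624 FPKM (SD, n = 3 each), and the difference was not called (log2 difference 0.29, 95% interval -0.14 to 0.71; limma, adjusted p = 0.349). That interval runs from a fitted fold of 0.907 to 1.64, so a moderate rise and no change are both within it. Without Control 1 the difference was 0.53 and Vcan was called higher (limma, adjusted p = 0.0193), a choice of library that the design does not give, and in that fit 16.9% of genes were called, 9.03% higher and 7.88% lower. Gene-level values also cannot separate the splice forms of versican, which differ in their chain-bearing part.

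Hspg2 encodes perlecan, a heparan sulfate proteoglycan of the pericellular matrix (chromosome 4, 137468803 to 137570630, plus strand). Control 1, 2 and 3 stood at 77.2, 126 and 132 FPKM, and the cKO libraries at 93.7, 97.7 and 109 FPKM. Control 1 was the lowest of all 6 libraries and the other controls the highest. The means of 112 ± 30.2 and 100.1 ± 7.83 FPKM (SD, n = 3 each) did not differ beyond that spread (log2 difference -0.12, 95% interval -0.53 to 0.28; limma, adjusted p = 0.696). Without Control 1 Hspg2 was called lower (log2 difference -0.37; limma, adjusted p = 0.0221), and without Control 3 the sign turned (log2 difference 0.017; limma, adjusted p = 0.962). Endothelial cells also make perlecan, and of 8 endothelial markers none reached the filter. Their summed level was 0.200 to 0.399 FPKM in the controls and 0.606 to 1.17 FPKM in the cKO libraries, with Tie1 and Emcn at 0 in every library.

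**Figure D2:**
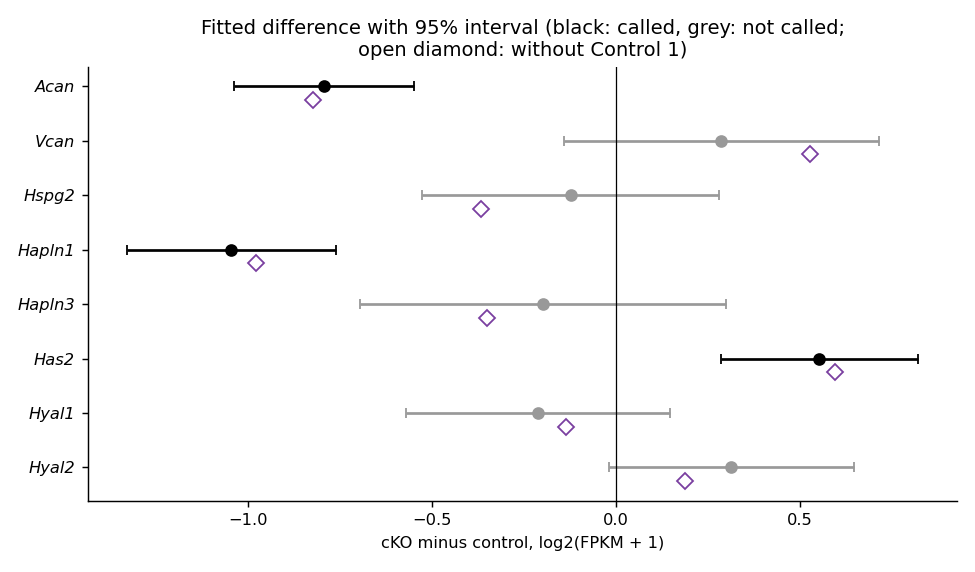
Fitted difference, cKO minus control, on the log2(FPKM + 1) scale (horizontal axis) for the 8 tested genes, with 95% intervals. Black points were called, and the open diamonds give the value without Control 1, where Vcan moves from 0.29 to 0.53 and Hspg2 from -0.12 to -0.37.

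Has2, which encodes the synthase of long hyaluronan chains, was the only one of the 3 synthase genes above the filter (chromosome 15, 56665627 to 56694546, minus strand). It stood at 12.8, 10.8 and 12.5 FPKM in the controls and at 16.2, 20.6 and 17.7 FPKM in the cKO libraries. Every cKO library lay above every control, and cKO 2 was the highest. The mean rose 1.51-fold, from 12.0 ± 1.08 to 18.1 ± 2.22 FPKM (SD, n = 3 each; log2 difference 0.55, standard error 0.12; limma, adjusted p = 0.0120). The call was at its limit without cKO 2 (log2 difference 0.46; limma, adjusted p = 0.05004). The antisense gene Has2as is listed over the same interval, at 1.03, 2.21 and 2.04 FPKM in the controls against 1.19, 0 and 1.08 in cKO cells, and was not called (limma, adjusted p = 0.169). The strand setting of the counting was not given in the sources used here, so how reads were divided between Has2 and Has2as is uncertain.

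Has1 and Has3, the other synthase genes, were barely detected. Has1 stood at 0.163, 0 and 0.321 FPKM in the controls and at 0, 0 and 0.171 in the cKO libraries. Has3 stood at 0.0543, 0.348 and 0.107 FPKM in the controls and at 0.188, 0.336 and 0.114 in the cKO libraries. Both genes overlap between the groups and show no order by genotype. After correction for relative depth, these values were whole multiples of 1 smallest step, to within 0.1 of a step. Has1 came to 1, 0 and 2 steps in the controls and 0, 0 and 1 in cKO cells, and Has3 to 1, 6 and 2 steps against 3, 6 and 2. If a step is 1 fragment, no difference between the groups was detectable at this depth. In the fit that tested every gene above 0, of which 12% were called (7.12% higher and 4.87% lower), neither was (limma, adjusted p = 0.565 for Has1 and 0.813 for Has3). Has2 made up 98.3%, 96.9% and 96.7% of the summed FPKM of the 3 synthases in the controls and 98.9%, 98.4% and 98.4% in cKO cells. These shares were nearly all Has2 in every library, and the groups did not overlap (exact permutation test, two-sided, p = 0.1, the smallest that 3 against 3 libraries can give). The difference of 1.25 percentage points rests on the few steps of Has1 and Has3, and with 1 FPKM added to each synthase it was 4.57.

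Hyal1 and Hyal2 encode hyaluronidases, the first lysosomal and the second anchored to the cell surface. Hyal2 stood at 7.84, 12.0 and 9.20 FPKM in the controls and at 11.2, 12.9 and 12.2 FPKM in the cKO libraries. Control 2 lay within the range of the cKO libraries and the other controls lay below it. Its log2 difference was 0.31 (95% interval -0.02 to 0.65; limma, adjusted p = 0.183). Hyal1 stood at 5.62, 5.17 and 4.15 FPKM in the controls and at 4.51, 3.39 and 4.60 FPKM in the cKO libraries, which overlap. The log2 difference of -0.21 (95% interval -0.57 to 0.15) was not called either (limma, adjusted p = 0.413). In the GENCODE annotation Hyal1 overlaps Hyal3 and Naa80 on the same strand, so its reads may be shared with them.

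The 10 genes span a wide range of levels per length. In the controls the order by mean FPKM was Acan, Hapln1, Hspg2, Vcan, Has2, Hyal2, Hyal1, Hapln3, Has3 and Has1, with Acan 5.43-fold above Hapln1 and Hspg2 8.15-fold above Vcan. Vcan and Has2, Has2 and Hyal2, and Has3 and Has1 overlapped in range and so were not separated. In cKO cells Hapln1 and Hspg2 overlapped, at means of 102 and 100.1 FPKM, and Has2 stood next to Vcan, at 18.1 and 16.4 FPKM, with overlapping ranges. The spread also differed between genes. The coefficient of variation was 33.8% among controls and 3.81% among cKO libraries for Vcan, 27.0% and 7.82% for Hspg2, 16.0% and 5.74% for Acan, and 8.97% and 12.2% for Has2.

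The balance of the lecticans was taken within each library, where scaling between libraries cancels. The ratio of Acan to Vcan FPKM was 57.9, 136 and 81.5 in the controls against 40.9, 38.8 and 40.9 in cKO cells. All 3 cKO libraries lay below the lowest control, and they were close to each other while the controls were spread widely. The mean ratio was 91.8 ± 40.1 in controls and 40.2 ± 1.20 in cKO cells (SD, n = 3 each), a difference of -1.10 on the log2 scale (exact permutation test, two-sided, p = 0.1, the smallest possible). Hapln1 per Acan was 0.210, 0.172 and 0.172 in the controls against 0.162, 0.148 and 0.152 in cKO cells. The groups again did not overlap, but the gap was small (log2 difference -0.26; exact permutation test, two-sided, p = 0.1), and the difference was -0.16 without Control 1. Among all genes tested, 35.9% had groups that did not overlap in FPKM.

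**Figure D3:**
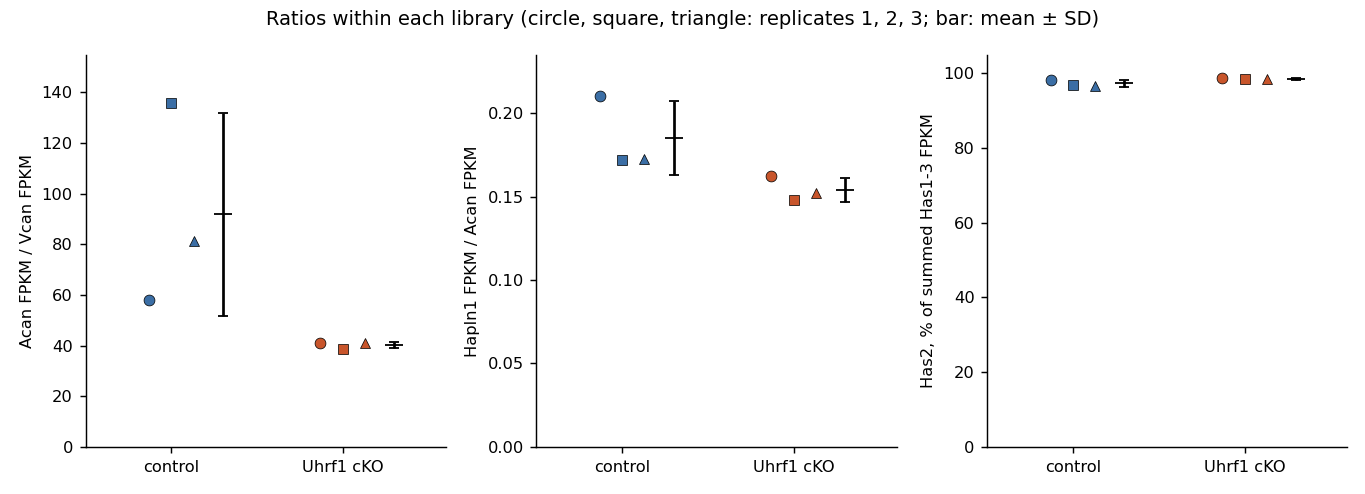
Ratios within each library (vertical axes, each from 0): Acan to Vcan, Hapln1 to Acan, and Has2 as a percentage of the 3 synthases, for 3 control and 3 cKO libraries, with the mean and SD beside them. The Acan to Vcan ratio is 38.8 to 40.9 in cKO cells and 57.9 to 136 in controls.

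Link protein genes lie beside lectican genes in mammals, and 6 of the 10 genes lie in 3 neighbouring pairs, among them Hyal1 with Hyal2. By the table's coordinates Hapln3 began 1927 bases after Acan on chromosome 7, on the opposite strand and ending toward it. GENCODE ends Acan at 79115099 and begins Hapln3 at 79115102. The strand setting was not given, so how reads near these ends were divided is uncertain. Acan fell and Hapln3 was not called, while Mfge8, the entry 2749 bases beyond Hapln3, which encodes a secreted phosphatidylserine-binding protein, rose from 85.1 ± 15.8 to 134 ± 5.46 FPKM (log2 difference 0.67; limma, adjusted p = 0.00548). On the other side of Acan, Isg20 lay 133086 bases away and was not called (limma, adjusted p = 0.611). Hapln1 and Vcan were 43477 bases apart on chromosome 13 with no entry between them. Hapln1 fell and Vcan was not called. The outer neighbours Edil3 and Xrcc4 were not called (limma, adjusted p = 0.477 and 0.849). Hyal2 and Hyal1 were 4173 bases apart on chromosome 9. Beside Hyal2, the gene Tusc2 rose from 8.49 ± 0.361 to 12.8 ± 0.234 FPKM (log2 difference 0.54; limma, adjusted p = 0.00595). Nat6, listed 36 bases after Hyal1, was not called (limma, adjusted p = 0.190). GENCODE ends Hyal1 at 107581710, past the listed Nat6 start of 107580170, so there the 2 overlap. Hyal3 is listed over the same interval as Nat6 and was under the filter. The differences of adjacent members were not tested against each other beyond the ratios given. The other listed neighbours were not called or not tested, among them Chtf8, listed 960 bases after Has3, at 61.3 ± 4.10 and 55.0 ± 1.99 FPKM, and Tango6, Sntb1 and Ncrna00085. GENCODE places Chtf8 over part of Has3 on the other strand. Fpr1, Slc22a22, Ldlrad2 and 1700013G24Rik were under the filter.

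The genes most like Acan over the 6 libraries were found by the root mean square distance between profiles centred on the log2(FPKM + 1) scale, among 8417 genes of at least 5 FPKM on average. They were Col11a1, a fibrillar collagen of cartilage, at a distance of 0.062, Susd5 at 0.086 and Clec11a at 0.089. Col11a1 stood at 1366, 1514 and 1183 FPKM in the controls and at 894, 755 and 795 FPKM in the cKO libraries. It shared with Acan the order Control 2, Control 1, Control 3 and then cKO 1, cKO 3, cKO 2. The genes most like Vcan were Coprs at 0.076, Mir22hg at 0.104 and Dram1 at 0.105. Each of the latter 3 had its highest control value in Control 1 and its lowest in Control 2, and none was called. All these genes were chosen for a profile close to that of Acan or Vcan, so the shared orders follow from the choice.

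**Figure D4:**
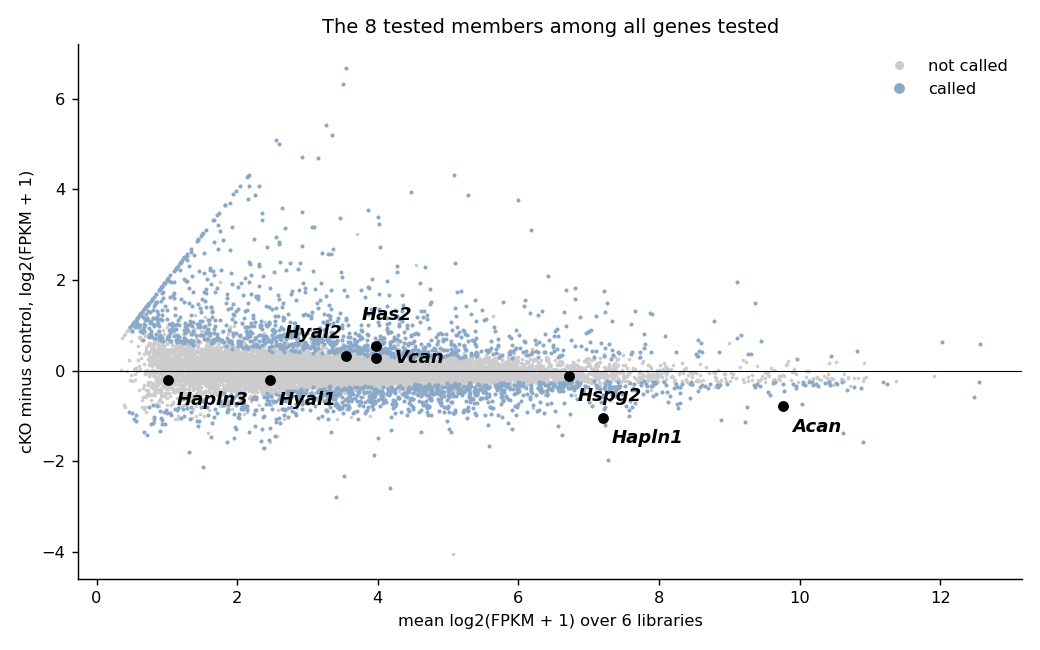
Difference, cKO minus control (vertical axis), against the mean level (horizontal axis), both on the log2(FPKM + 1) scale, for the 11911 genes tested. The 8 tested members are labelled, and Acan, at -0.79, lies at the high end of expression.

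Around these genes, 7 lists of pathway genes were counted, 79 genes in all, of which 59 were tested. In cKO cells 10 rose and 19 fell, or 49.2% called beside 17.8% of all genes tested, with a median log2 difference of -0.08. Members of a list are not independent, and the lists were chosen with earlier results of these data known. The other lectican and link protein genes stayed low, and of Bcan, Ncan, Hapln2 and Hapln4 only Bcan and Hapln4 were tested. Bcan stood at 0.790 ± 0.302 and 1.05 ± 0.465 FPKM and Hapln4 at 1.36 ± 0.231 and 1.36 ± 0.270 (limma, adjusted p = 0.658 and 0.987). All other lectican and link protein genes thus stood far below Acan, Hapln1 and Vcan.

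Of 9 tested receptors and binding proteins of hyaluronan, 6 fell and 1 rose, or 77.8% called beside 17.8% of all genes tested. Itih5 and Itih2 encode heavy chains that are transferred onto hyaluronan. Itih5, which passed the filter only through the controls, stood at 3.70 ± 0.962 and 0.341 ± 0.228 FPKM, and Itih2 fell 2.22-fold, from 18.0 ± 2.01 to 8.12 ± 1.08 FPKM (limma, adjusted p = 0.000476 and 0.000588). Tnfaip6, which encodes the enzyme that carries out this transfer, fell 1.96-fold, from 5.87 ± 0.612 to 3.00 ± 1.52 FPKM (limma, adjusted p = 0.0456). Removing cKO 3 left that call standing, and removing any of the other 5 libraries ended it (limma, adjusted p = 0.0681 to 0.111). Hmmr, a hyaluronan-binding protein of the mitotic spindle, fell 1.91-fold, from 39.2 ± 3.94 to 20.5 ± 2.32 FPKM (limma, adjusted p = 0.000658). The gene that rose was Cd44, the main hyaluronan receptor, and it was named after its value was seen. It went from 48.9 ± 8.47 to 72.3 ± 6.97 FPKM (limma, adjusted p = 0.0149), and its call was lost without cKO 2 or cKO 3 (adjusted p = 0.0552 and 0.0580).

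Among 5 tested degrading enzymes other than Hyal1 and Hyal2, 3 rose and none fell, or 60% called beside 17.8% of all genes tested. The gene listed as 9930013L23Rik, an older symbol of Cemip, encodes a protein needed for hyaluronan breakdown at the cell surface. It stood at 5.61, 3.55 and 6.58 FPKM in the controls and at 12.6, 13.9 and 14.2 FPKM in the cKO libraries. This was a rise of 2.59-fold without overlap (log2 difference 1.25; limma, adjusted p = 0.00144). Its relative Tmem2, now named Cemip2, rose 1.53-fold, from 10.8 ± 0.537 to 16.5 ± 1.51 FPKM (limma, adjusted p = 0.00618). Hexa, a lysosomal hexosaminidase subunit, rose 1.34-fold (limma, adjusted p = 0.0375), but leaving out Control 2, Control 3, cKO 1 or cKO 3 ended the call (limma, adjusted p = 0.0585 to 0.126). The hyaluronidase genes Hyal4, Hyal5 and Spam1 were listed at 0 in every library.

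Of 8 genes that supply sugar nucleotides, 2 fell and none rose, or 25% called beside 17.8% of all genes tested, a share near the background. Ugdh, which makes the UDP-glucuronic acid used for hyaluronan and chondroitin chains, fell 1.51-fold, from 179.9 ± 13.1 to 119 ± 3.26 FPKM (limma, adjusted p = 0.000905). Gfpt2, which starts hexosamine synthesis, fell 1.79-fold, from 41.5 ± 3.13 to 23.2 ± 2.83 FPKM (limma, adjusted p = 0.000963).

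Of 7 tested genes listed for the cleavage of aggrecan and versican, 4 rose and 2 fell, and the directions differed within the family. These calls were 85.7% of the list, beside 17.8% of all genes tested. Adamts9, a versicanase gene, fell 1.86-fold, from 27.9 ± 3.58 to 15.0 ± 0.734 FPKM (limma, adjusted p = 0.000828), and Adamts1 fell too, named after its value was seen (25.3 ± 1.28 to 15.5 ± 1.48 FPKM; limma, adjusted p = 0.00197). The aggrecanase gene Adamts4 rose from 1.06 ± 0.246 to 2.11 ± 0.211 FPKM (limma, adjusted p = 0.0407), passed the filter only through the cKO libraries, and only the removal of Control 1 left this call standing (limma, adjusted p = 0.0769 to 0.130 for the other libraries removed one at a time). Adamts5, the main aggrecanase of mouse cartilage, was not called, at 6.85 ± 1.15 and 5.73 ± 0.541 FPKM (limma, adjusted p = 0.358). The metalloproteinase genes Mmp13 and Mmp3 rose 3.42- and 1.77-fold (limma, adjusted p = 3.75e-06 and 0.00737). The fourth rise was that of Timp3, an inhibitor of these proteases and not a protease itself, from 1553 ± 184 to 2104 ± 169 FPKM (limma, adjusted p = 0.0118, and 0.0573 without cKO 1), and the authors' deposited table did not call it.

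The chains that aggrecan carries are built by the chondroitin sulfate list, in which 5 of 18 tested genes fell and none rose. This was 27.8% called, beside 17.8% of all genes tested, a share not far above the background. Papss2, which makes the sulfate donor, fell 2.005-fold, from 269 ± 33.4 to 134 ± 11.1 FPKM (limma, adjusted p = 0.000259). Csgalnact1, which starts the chondroitin chain, fell 1.66-fold, the xylose kinase gene Fam20b 1.43-fold and the xylosyltransferase gene Xylt1 1.34-fold (limma, adjusted p = 0.00227, 0.00275 and 0.0295). Leaving out Control 1, Control 2, cKO 1 or cKO 2 ended the call of Xylt1 (limma, adjusted p = 0.0523 to 0.104). The remaining fall was that of Papss1 (1.31-fold; limma, adjusted p = 0.0230). Its call was lost without Control 2, cKO 2 or cKO 3 (limma, adjusted p = 0.0689 to 0.0853). Among 10 tested partners of perlecan, 4 fell and 2 rose while Hspg2 itself was not called. This was 60% called, beside 17.8% of all genes tested. Of the falls, those of Nid1 and Col4a2 each lost their call in 5 of 6 fits with a single library left out (limma, adjusted p = 0.0673 to 0.103 and 0.0610 to 0.143). Nid2 and Lama4 fell 1.95- and 1.61-fold (limma, adjusted p = 0.000432 and 0.00574), and Agrn, which encodes the heparan sulfate proteoglycan agrin, rose 1.80-fold, from 10.1 ± 0.806 to 18.1 ± 0.0316 FPKM (limma, adjusted p = 0.000737). Col18a1 rose 1.72-fold, and only the removal of Control 3 left this call standing (limma, adjusted p = 0.0250 with all 6 libraries, 0.0550 to 0.0833 for the other removals).

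**Figure D5:**
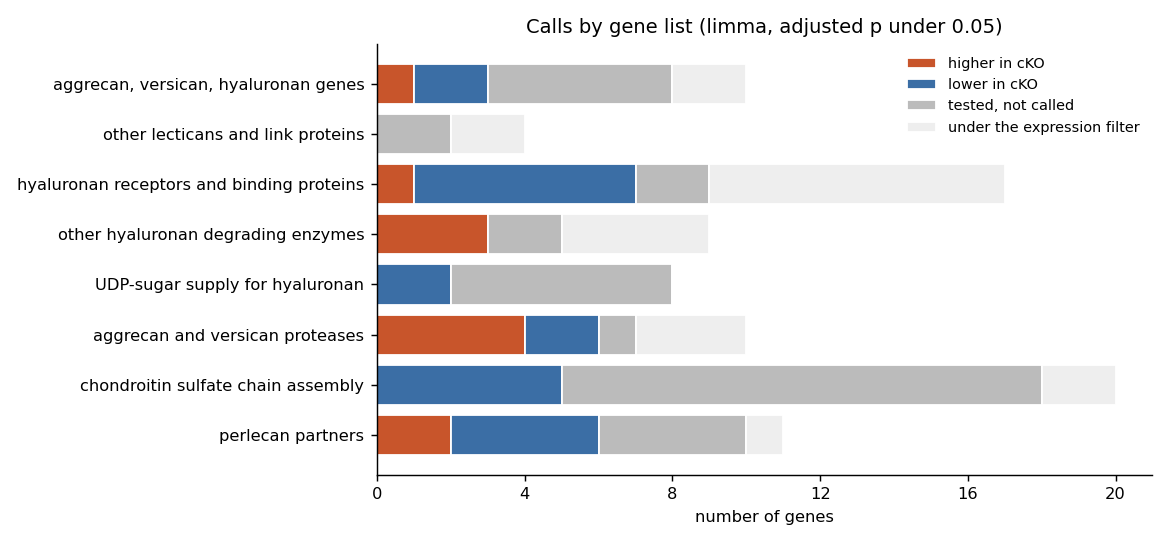
Number of genes (horizontal axis) higher, lower, tested but not called, or under the expression filter, for the 10 genes and for 7 lists around them (limma, adjusted p under 0.05). The 5 called chondroitin chain genes, of 18 tested, are all lower. The 3 called degrading enzymes other than Hyal1 and Hyal2, of 5 tested, are all higher. Of all genes tested, 17.8% were called.

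Markers of other cell types moved beside these results. Of 14 chondrocyte markers 9 fell and none rose, led by Matn1, Col11a2, Matn3 and Chad, at 3.99-, 2.38-, 2.37- and 2.25-fold lower (limma, adjusted p = 4.16e-06, 0.00333, 0.000196 and 0.00239), and Acan and Hapln1 fell with them. Calls covered 64.3% of these 14 markers, beside 17.8% of all genes tested. The summed level of the 14 markers was 10951 to 14527 FPKM in the controls and 7489 to 8338 in the cKO libraries. Col2a1 was the largest part of that sum, at 5767 to 8262 FPKM in the controls and 4524 to 4775 in the cKO libraries. It was called lower (limma, adjusted p = 0.00764), but not in the authors' deposited table (q = 0.457). The transcription factor genes Sox9, Sox5 and Sox6 were not called (limma, adjusted p = 0.268, 0.133 and 0.545), while the authors' deposited table calls Sox5 lower (q = 0.0378). Of 12 skeletal muscle markers 9 were tested, and 6 of these passed the filter only through the cKO libraries, so that they had to be higher there. The other 3, Acta1, Tnnt3 and Tnni2, were called higher, and the authors' deposited table calls these and Myog higher. The summed level of the 12 was 7.19 to 8.93 FPKM in the controls and 120.2 to 208 FPKM in cKO cells, with Myod1 and Myog, the defining factors, listed at 0 in all 3 controls. Mylpf stood at 64.7 ± 23.6 FPKM and Myh3 at 4.91 ± 0.720 FPKM in cKO cells, and the authors' deposited table calls neither (q = 0.0600 and 0.321). Fibroblast and synovial lining markers, whose cells can also express Vcan and Has2, summed to 8131 to 9172 FPKM in the controls and 10488 to 11389 in the cKO libraries, and without Fn1 to 3439 to 4080 FPKM and 3431 to 3855 FPKM. Of the 12 genes 4 were called higher and 1 lower, or 41.7% called. The authors' deposited table calls 3 higher and 3 lower and does not call Fn1 (q = 0.700). Postn rose 2.60-fold, Gdf5 1.90-fold and Fn1 1.51-fold (limma, adjusted p = 0.000727, 0.00737 and 0.000259), and Cd34 fell 1.61-fold, a call that ended when Control 1 or any cKO library was removed (limma, adjusted p = 0.0243 with all 6 and 0.0517 to 0.0842). Macrophage and leukocyte markers summed to 10.6 to 50.2 FPKM in the controls and 27.3 to 37.4 in the cKO libraries, and without Fcer1g to 10.6 to 50.2 and 12.3 to 19.5 FPKM. Fcer1g, which passed the filter only through the cKO libraries, was the 1 of 5 tested (20%) that was called (limma, adjusted p = 1.20e-05). The authors' deposited table does not call it. Lyz2 was highest in Control 1 at 46.6 FPKM and was not called (limma, adjusted p = 0.361), while the authors' deposited table calls it lower (q = 0.000520). The part of these cells in the differences of the 10 genes was not tested.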

How the data were processed

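RNA came from 6 libraries, 3 control and 3 Uhrf1 cKO. Per the labels' protocols, RNA of high integrity was used with a stranded mRNA preparation kit. Per the series text, the authors mapped reads to mm10 with TopHat and analysed them with Cufflinks. Versions, annotation and strand setting were not given in the sources used here. Per the file headers, the authors' table holds values for each gene in each library and as a mean of each group. It also gives their p-value and q-value, a log2 fold change and the score of their test, per the file headers. The headers do not name the unit, and FPKM was taken from the series text and the layout of the table. Of 23352 lines, 1 was empty and is not reported here. Listed starts were 1 below the RefSeq start for 10537 of 21448 genes and equal for 672, so 1 was added to them.

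FPKM are not counts. Genes with at least 1 FPKM in 2 libraries (11911) entered a two-sided limma fit (version 3.58.1, R 4.3.3, robust eBayes with a trend) of log2(FPKM + 1). Benjamini-Hochberg adjustment covered all of them. The scale understates changes of low genes. Folds are ratios of mean FPKM, given where both means are at least 1 FPKM. The test was run on simulated data first. Ratios were tested by exact permutation with scipy 1.17.1. The labels do not say that libraries came from separate animals, so p-values measure the spread between these samples, which may be technical. An exact 0 may be a failed estimate.

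All 10 genes are named. From each list, up to 4 called genes by size of the ratio are named, or the 2 most expressed where fewer than 2 were called, and the nearest entries on each side of a member. The 3 genes most like Acan and the 3 most like Vcan are named too. The markers Myod1, Mylpf, Myh3, Myog and Fcer1g fall under this rule. Genes outside it are marked as chosen after their values were seen, or are Adamts5, Timp3, Uhrf1, Col2a1, Has2as and the genes at 0. Sox9, Sox5, Sox6, Nid1, Col4a2, Papss1, Acta1, Tnnt3 and Tnni2 are also outside it and were named after their values were seen. Ncan and Hyal3, both under the filter, are outside it too. The members and lists were chosen with earlier results of these data known. Proteins were not compared here. Counts of calls and the members' differences were recomputed with a stricter threshold, a minimum difference, other filters, another pseudocount, 2 scalings, a replicate block, a covariate for Y-linked transcript (present in 3 libraries) and the authors' test, and with each library left out. Hapln3 has no value at the 5 FPKM filter or in the authors' test. The ratios were recomputed only with a pseudocount and with each library left out, and the calls of named genes that are not members only without the filter and with each library left out, beside the authors' calls.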

Additional observations from a re-analysis of the deposited data

How the results depend on the processing

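Acan and Hapln1 fell and Has2 rose in every alternative run, with log2 differences of -0.89 to -0.67, -1.19 to -0.97 and 0.46 to 0.63, and Hapln1 was called in all of them. Acan was not called where a log2 difference of at least 1 was required. Has2 was not called at an adjusted p under 0.01, at a log2 difference of at least 1 or without cKO 2. The log2 difference of Hspg2 ran from -0.37 without Control 1 to 0.017 without Control 3, where its sign turned. The number of the 10 genes called higher was thus 0 at the stricter threshold and 0 at the minimum difference, where 1 was called lower, and leaving out single libraries gave 0 to 2 higher and 2 to 3 lower. Over all genes, 647 were higher and 377 lower at an adjusted p under 0.01, and 431 and 75 at the minimum difference, while leaving out single libraries gave 765 to 1095 higher and 503 to 931 lower. Of the pathway genes, 5 were higher and 12 lower at the stricter threshold and 2 and 2 at the minimum difference, and single libraries left out gave 6 to 9 and 13 to 17. The ratios kept their direction, with log2 differences of -1.39 to -0.77 for Acan to Vcan and -0.31 to -0.16 for Hapln1 to Acan, and 0.95 to 1.76 percentage points for the Has2 share, which was 4.57 with 1 FPKM added to each synthase. With the replicate number as a block, 1 of the 10 genes was higher and 2 lower, and 1151 genes were higher and 946 lower overall. The deviations of same-numbered libraries correlated at 0.169, 0.026 and -0.044 over 11911 genes, so the numbers were not taken to pair the samples, and cKO 2 and cKO 3 did not correlate best with their own number. Y-linked transcript was present in 3 libraries, which cannot divide evenly between control and cKO. With a covariate for it, 1 of the 10 genes was higher and 2 lower, and 955 genes were higher and 699 lower overall. Depth limits Has1, Has3 and Hapln3, and FPKM give no counting interval.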
